A study of Mus musculus with 6 samples.

Results

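Axon guidance ligands and receptors were examined in neurospheres of fetal mouse hypothalamic neural stem/progenitor cells (NSC/NPCs) after high maternal estradiol. The set was defined by gene symbol, with earlier results of these data known. It comprised the semaphorins, plexins, neuropilins, ephrins, Eph receptors, Slits, Robo receptors, netrins 1, 3 and 4, the Unc5 receptors, Dcc and Neo1. It held 68 of the 22048 genes in the expression table, 33 ligands and 35 receptors, and Ntn3 was not found there under its symbol. RNA was sequenced from 3 HE samples and 3 NC samples of first-passage neurospheres, which are floating spheres grown from dissociated hypothalamus, and each sample contained cells from 2 mice. Dams of the HE (high estradiol) group were C57BL/6 mice of 8 weeks that were gavaged with estradiol valerate, an estradiol ester, at a dose of 100 μg/kg/d between E5.5 and E11.5. Dams of the NC (control) group received the corn oil solvent by the same route, although a label of these samples reads untreated. Cells of both groups came from male fetuses at E14.5 and grew in medium with EGF and bFGF at 10 ng/mL each and B27. The model thus shows cells several days after the last dose, dissociated and expanded in culture, rather than the hypothalamus itself. The labels do not say whether samples of a group came from separate litters, so p-values measure the spread between these samples only.

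Axon guidance molecules are secreted or membrane-bound cues that attract or repel growing axons and migrating cells, and receptors on the responding cell read them. Semaphorins signal through plexins, with neuropilins as co-receptors for most secreted class 3 semaphorins. Ephrins signal to Eph receptor tyrosine kinases by cell contact, Slits to Robo receptors, and netrins to Dcc and Unc5 receptors. In the embryonic forebrain the same molecules are also known from germinal zones, where they act on progenitor cells, and from the routes along which neurons reach the hypothalamus.

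Between 16078675 and 19137059 reads per sample fell on genes, and levels are given as RPKM, the reads of a gene divided by its length in kilobases and by the depth of the sample, so that genes can be compared with each other. One sample, HE3, stood apart from the rest. On the log2(RPKM + 0.1) scale its Euclidean distance to the other samples was 77.7 to 107, whereas the other 5 samples lay 38.7 to 67.6 from each other, and HE3 was also the shallowest. The main results on members are therefore given with and without HE3 where they rest on it. Checked against the label of neural stem cells, the 9 listed markers of neural progenitors were all detected and summed to 2908 to 3606 RPKM in NC and 2859 to 4549 RPKM in HE, among them Nes at 154 to 247 RPKM and Sox2 at 97.3 to 209 RPKM. Sox2, Sox1 and Notch1, 3 of the 9, were lower in every HE sample. Genes listed as markers of neurons and astrocytes were detected as well, which alone does not show that these cell types were present. The 10 neuronal markers summed to 49.1 to 79.3 RPKM in NC and 55.7 to 75.5 RPKM in HE, with 3 of the 10 higher in every HE sample, and the 7 astrocyte markers to 1482 to 1888 RPKM in NC and 1072 to 1512 RPKM in HE, with 1 higher and 1 lower in every HE sample.

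The members covered a wide range of levels. The most abundant was Plxnb2, a plexin receptor for class 4 semaphorins, at 77.9 to 118 RPKM, followed by the secreted cue Ntn1 at 50.4 to 90.0 RPKM. In all, 18 members had a mean above 10 RPKM and 17 a mean below 1 RPKM. Of the 68 members, 64 had enough reads to be tested. The other 4 stayed near the floor of detection, with 0 to 7 reads per sample for Epha6, 1 to 5 for Epha8, 3 to 6 for Robo4 and 6 to 11 for Sema3g.

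More of the tested members were lower than higher in HE. No member reached an adjusted p below 0.05 in limma, the linear model fitted to log2(RPKM + 0.1) over all 13952 tested genes. Over the genome 0 genes were called at that threshold with a log2 fold change of at least 1 either way, a share of 0.0%, and the smallest adjusted p was 0.148. At the same cutoffs the authors did report differentially expressed mRNAs with DESeq2, a test on read counts. The 0 therefore belongs to this limma fit. When each sample instead had a weight estimated from the data, with HE3 at 0.158, 6 members passed both thresholds (Nrp2, Epha7, Sema3e, Epha1, Plxnd1 and Sema3b), as did 1.92% of all tested genes. The adjusted p of the members ran from 0.195 to 0.969. At an unadjusted p below 0.05, 17 of the 64 members (26.6%) were lower in HE and 5 (7.81%) were higher, whereas over all tested genes 11.8% were lower and 8.68% higher. In 19 members (29.7%) all HE values lay below all NC values, and in 8 (12.5%) all lay above, against 17.9% and 14.8% of all tested genes. The median log2 fold change, HE minus NC, was -0.25 over the members and -0.06 over all tested genes. It was below 0 in 46 members and above 0 in 18, beside 7843 and 6109 of all tested genes. After median-of-ratios scaling these counts were 44 and 20 for the members and 7001 and 6951 for all tested genes. For a single gene whose groups do not overlap, an exact permutation test, two-sided and with 20 ways to assign the samples, gave p = 0.1, the smallest it can give. In bulk RNA, fewer cells of a type and less RNA per cell cannot be told apart.

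HE3 carried part of the shift. Relative to the NC mean, the median member lay at 0.05, -0.06 and -0.05 log2 units in NC1, NC2 and NC3 and at -0.18, -0.11 and -0.55 in HE1, HE2 and HE3. HE3 was the lowest of the 6 samples in 34 of the 64 members (53.1%), compared with 44.4% of all tested genes, and NC1 was the highest in 27 members (42.2%), compared with 20.3%. Without HE3 the median log2 fold change was -0.09 over the members and 0.00 over all tested genes. The counts at an unadjusted p below 0.05 were then 12 members lower and 7 higher, beside 10.5% and 9.35% of all tested genes. All 17 members that were lower with the 6 samples kept their direction without HE3, 11 of them at p below 0.05, and in 14 the difference became smaller. All 5 that were higher kept their direction, 4 of them at p below 0.05. Among the 64 members 9 turned direction. Without NC1, 8 members (12.5%) were lower and 2 (3.12%) higher, beside 5.23% and 4.39% of all tested genes.

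**Figure D1:**
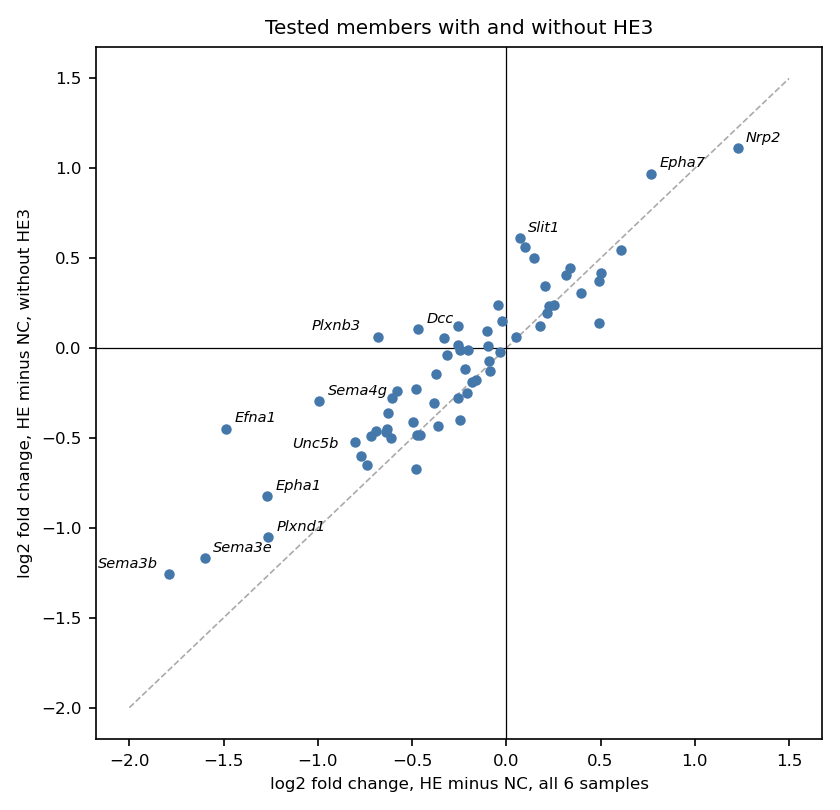
Each point is 1 of the 64 tested members, with its log2 fold change (HE minus NC) from all 6 samples on the x axis and from the 5 samples without HE3 on the y axis, both on the log2(RPKM + 0.1) scale, and the dashed line marks equal values. Plxnd1, Sema3e and Sema3b stay below -1 on both axes and Nrp2 above 1, whereas Efna1 moves from -1.49 to -0.45 and Plxnb3 and Dcc cross 0.

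The families differed in the size and direction of their summed levels. The 9 plexins had the highest sum and were lower in HE, with 225, 210 and 194 RPKM in the NC samples and 144, 155 and 141 RPKM in the HE samples, or 209.5 ± 15.3 against 146.8 ± 6.98 RPKM (mean ± SD, n = 3 each). Their log2 ratio of means was -0.51, and -0.49 without HE3. The 20 semaphorins summed to 95.3 ± 8.72 RPKM in NC and 75.8 ± 7.01 RPKM in HE, a log2 ratio of -0.33 (-0.26 without HE3). The sums of the EphB receptors (-0.31), the ephrin-A ligands (-0.54) and the Unc5 receptors (-0.68) were also lower in every HE sample than in every NC sample, with log2 ratios of -0.24, -0.23 and -0.46 without HE3. Only the neuropilin sum lay higher in every HE sample, with 11.4 ± 0.644 RPKM for NC and 17.2 ± 2.08 RPKM for HE, a log2 ratio of 0.59 (0.49 without HE3). The groups overlapped for the netrins (-0.24), the EphA receptors (-0.21), the ephrin-B ligands (-0.28), Dcc with Neo1 (-0.27), the Slits (0.21) and the Robos (0.21). All ligands together summed to 229 ± 29.5 RPKM in NC and 185 ± 15.5 RPKM in HE, and all receptors to 367 ± 22.4 and 284 ± 21.2 RPKM. Among these, Dcc with Neo1 had a log2 ratio of -0.03 and the Slits one of 0.53 without HE3, and the netrins one of -0.05 without NC1. Abundant members weigh most in a sum, and no test was made on the sums.

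**Figure D2:**
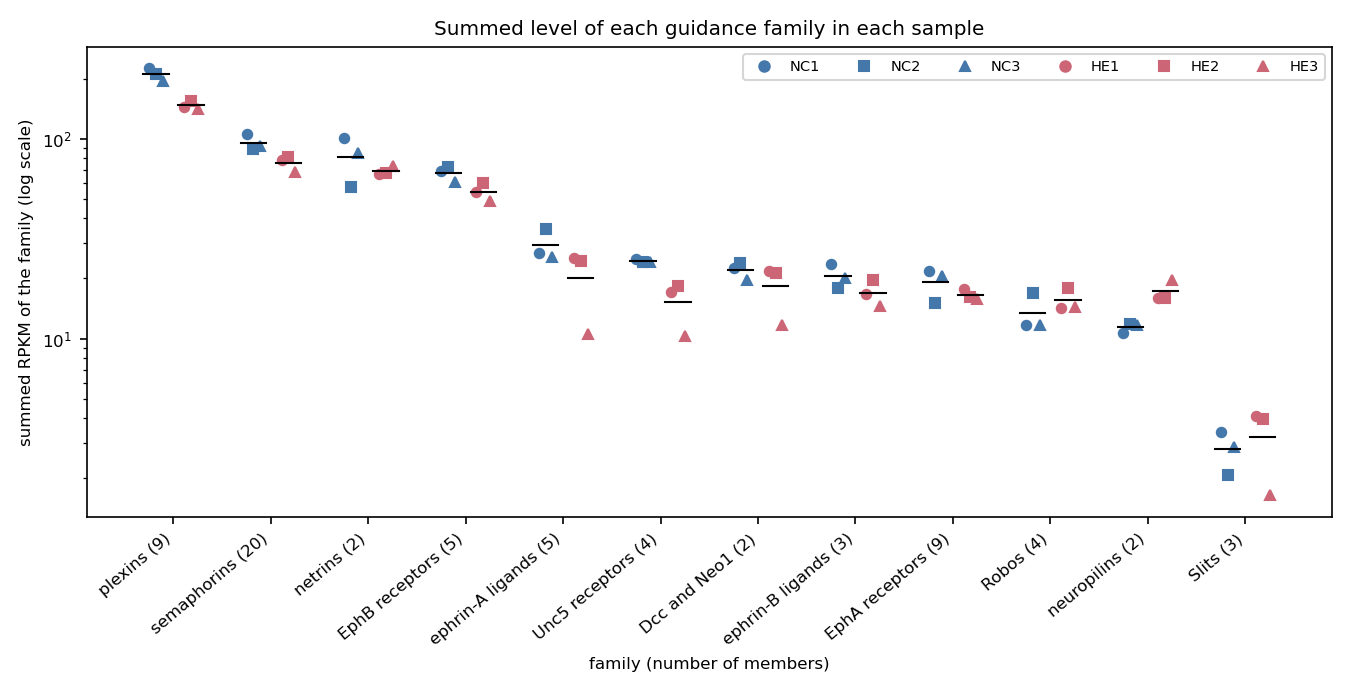
Summed RPKM of the members of each family (log scale) in each of the 3 NC samples (blue) and 3 HE samples (red), with the marker shape giving the replicate number and a line the mean of the group. Plexins, semaphorins, EphB receptors, ephrin-A ligands and Unc5 receptors are lower in all HE samples, neuropilins are higher in all, and HE3 is the lowest sample in 8 of the 12 families, by the widest margins for the ephrin-A ligands, Unc5 receptors and Dcc with Neo1.

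Among the receptors the plexins shared one direction. All 9 had a log2 fold change below 0, beside 7843 of all 13952 tested genes, and their median was -0.48. All 9 stayed below 0 after median-of-ratios scaling, while Plxnb3 and Plxnc1 turned above 0 without HE3. At an unadjusted p below 0.05, 4 were lower, namely Plxnd1, Plxnb1, Plxnb2 and Plxna1, beside 11.8% of all tested genes. In 5 of the 9 all HE values lay below all NC values, beside 17.9% of all tested genes. Plxnd1 (ENSMUSG00000030123, GRCm38.p6 chr6:115954811-115995339), the receptor that Sema3E binds directly, had the smallest p of all members. Its level was 25.7, 27.8 and 22.3 RPKM in the NC samples and 12.7, 11.6 and 7.73 RPKM in the HE samples, from 3091 to 3888 and from 908 to 1657 reads. All 3 HE samples thus lay well below the NC samples, and HE3 was the lowest. The mean was 2.37 times as high in NC, and the log2 fold change was -1.26 (SE 0.20, 95% interval -1.73 to -0.80, limma adjusted p = 0.195), or -1.05 without HE3 with an adjusted p of 0.0981. Plxnd1 made up 11.4% to 13.3% of the plexin sum in NC and 5.47% to 8.78% in HE.

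The plexin-B receptors, which bind class 4 semaphorins, included the most abundant member. Plxnb2 was at 118, 108 and 108 RPKM in NC and at 77.9, 86.7 and 95.0 RPKM in HE, a log2 fold change of -0.36 (SE 0.12, adjusted p = 0.195). Here HE3 was the highest of the HE samples, and the difference was -0.43 without it. Plxnb1 was at 32.4, 30.4 and 23.0 RPKM in NC and at 18.6, 18.6 and 13.0 RPKM in HE, a log2 fold change of -0.77 (SE 0.19, adjusted p = 0.195; -0.60 without HE3). Plxnb3 was close to the NC level in 2 of the HE samples and low in HE3, at 1.16 RPKM, so that its difference of -0.68 became 0.06 without HE3.

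The plexin-A receptors work with neuropilins or bind class 6 semaphorins directly. Plxna1 was at 17.0, 13.4 and 14.3 RPKM in NC and at 11.55, 12.52 and 10.12 RPKM in HE, a log2 fold change of -0.39 (SE 0.14, adjusted p = 0.213; -0.30 without HE3). Plxna3 did not overlap either, at 12.8 to 14.5 RPKM in NC and 5.52 to 11.9 RPKM in HE, but missed a p below 0.05. Plxna2 was at 9.50, 7.41 and 7.09 RPKM in NC and at 4.99, 4.88 and 7.46 RPKM in HE, so that only HE3 reached the NC range, and its log2 fold change of -0.48 became -0.67 without HE3. Plxna4, at 0.635 to 1.56 RPKM, and Plxnc1, a receptor of Sema7A at 0.738 to 1.31 RPKM, overlapped between the groups.

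The neuropilins went the other way. Nrp2 (ENSMUSG00000025969, GRCm38.p6 chr1:62703317-62818692), a co-receptor for Sema3F and Sema3C, was at 1.85, 1.58 and 2.86 RPKM in NC and at 4.39, 4.63 and 5.76 RPKM in HE, from 358 to 641 and from 931 to 1097 reads. Every HE sample was above every NC sample, and the mean was 2.35 times as high in HE. Its log2 fold change of 1.23 (SE 0.24, 95% interval 0.66 to 1.79, adjusted p = 0.195) was the only one above 1 among the members, and it was 1.11 without HE3. With NC3 left out it was 1.46 with an adjusted p of 0.0453, and it was then the only member among 0.738% of tested genes called. With any other sample left out instead, the limma adjusted p of Nrp2 ran from 0.147 (without HE3) to 0.502 (without NC1). Nrp1, a co-receptor for Sema3A that also binds VEGF, was at 8.83, 10.3 and 8.85 RPKM in NC and at 11.6, 11.4 and 13.9 RPKM in HE, a log2 fold change of 0.40 (SE 0.13, adjusted p = 0.198; 0.31 without HE3). Nrp2 made up 13.3% to 24.4% of the neuropilin sum in NC and 27.4% to 29.3% in HE. Set against the plexin-A receptors, the neuropilin sum was 25.1% to 33.6% of their sum in NC and 52.6% to 82.8% in HE. The neuropilin sum was higher and the plexin-A sum lower in every HE sample. This ratio therefore could not overlap between the groups and is no separate result.

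The neuropilins and Plxnd1 are also expressed in blood vessels. The 8 endothelial markers summed to 2.47 to 3.43 RPKM in NC and 4.17 to 5.26 RPKM in HE, with 3 of the 8 higher in every HE sample and 4 under 10 reads in every sample. The 3 were Cdh5, with 26 to 57 reads in NC and 125 to 196 in HE, and Cldn5 and Emcn, with 0 to 6 reads. Flt1, the endothelial marker with the most reads, overlapped at 1.35 to 2.53 RPKM in NC and 1.34 to 1.81 RPKM in HE, and Pecam1 had 3 to 17 reads and Tie1 0 to 8. The 8 mesenchymal and mural markers summed to 32.6 to 94.0 RPKM in NC and 78.4 to 168 RPKM in HE, with 2 of the 8 higher in every HE sample, among them Dcn at 2.46 to 5.96 RPKM in NC and 6.48 to 22.3 RPKM in HE. The 8 microglial markers summed to 1.06 to 1.39 RPKM in NC and 2.01 to 5.47 RPKM in HE, 2 of them higher in every HE sample and 2 under 10 reads in every sample. None of these markers was at 0 in all 6 samples. Their part in the levels of the guidance genes was not tested.

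**Figure D3:**
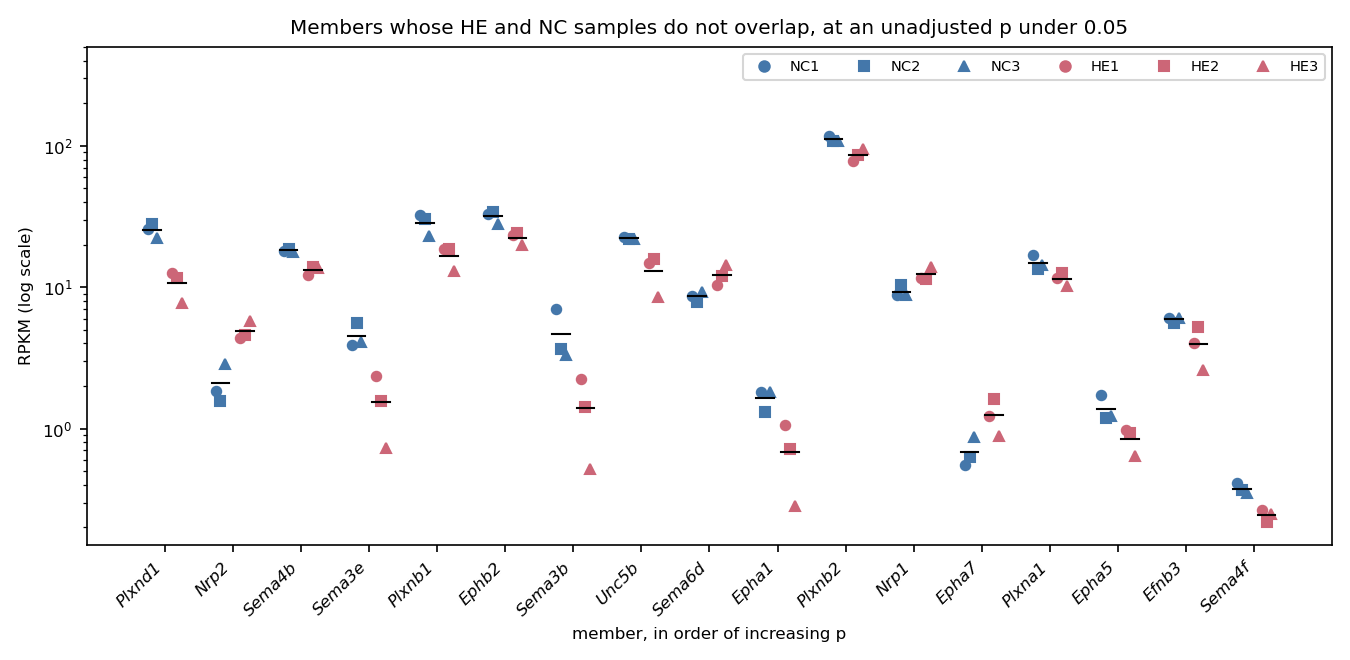
RPKM (log scale) of the 17 members with an unadjusted limma p below 0.05 and groups that do not overlap, in order of increasing p, for each NC sample (blue) and HE sample (red), with the marker shape giving the replicate number and a line the group mean. For 13 of them all HE samples lie below the NC samples, and for Nrp2, Sema6d, Nrp1 and Epha7 all HE samples lie above.

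Among the 5 semaphorin classes, the secreted class 3 had the lowest ratio of HE to NC. Its 7 genes summed to 14.9, 11.2 and 10.6 RPKM in the NC samples and 8.49, 6.35 and 5.36 RPKM in the HE samples, or 12.2 ± 2.35 RPKM in NC and 6.73 ± 1.60 RPKM in HE, a log2 ratio of -0.86, with no overlap. Sema3e (ENSMUSG00000063531, GRCm38.p6 chr5:14025276-14256689), the ligand of Plxnd1, was at 3.87, 5.55 and 4.12 RPKM in NC and at 2.36, 1.57 and 0.723 RPKM in HE. The groups did not overlap, HE3 was the lowest, and the mean was 2.91 times as high in NC. Its log2 fold change was -1.60 (SE 0.39, 95% interval -2.52 to -0.68, adjusted p = 0.195), or -1.17 without HE3. Ligand and receptor of this pair were thus both lower in all HE samples. Sema3b was at 7.04, 3.63 and 3.34 RPKM in NC and at 2.24, 1.42 and 0.521 RPKM in HE, a log2 fold change of -1.79 (SE 0.51, adjusted p = 0.195; -1.26 without HE3), and NC1 was the highest sample by far. The other class 3 genes were low and overlapped between the groups. Sema3a, the ligand read through Nrp1, was at 0.381 to 1.28 RPKM in NC and 0.998 to 1.46 RPKM in HE, a log2 fold change of 0.61 with a 95% interval of -0.33 to 1.55. Sema3c had a log2 fold change of 0.49, which was 0.14 without HE3. Sema3f, the ligand read through Nrp2, had one of -0.33 with a 95% interval of -1.53 to 0.87, and Sema3d one of 0.10.

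Classes 4 and 6 of the membrane-bound semaphorins stood on opposite sides. The 6 class 4 genes, ligands of plexin-B receptors, summed to 35.8 ± 2.36 RPKM in NC and 26.0 ± 3.06 RPKM in HE, with no overlap and a log2 ratio of -0.46. Sema4b, the most abundant semaphorin, was at 18.2, 18.8 and 17.7 RPKM in NC and at 12.2, 13.8 and 13.7 RPKM in HE, a log2 fold change of -0.46 (SE 0.10, adjusted p = 0.195) that was -0.48 without HE3. Its values were tight within both groups. Sema4f was lower in all HE samples at a low level, 0.349 to 0.413 RPKM in NC and 0.218 to 0.264 RPKM in HE, which is 21 to 41 reads per sample. Sema4g was at 8.53, 7.57 and 7.18 RPKM in NC and at 5.88, 6.72 and 1.40 RPKM in HE, so that its log2 fold change of -0.99 became -0.30 without HE3. Sema4a, Sema4c and Sema4d overlapped.

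The 4 class 6 genes, transmembrane ligands of plexin-A receptors, summed to 25.2 ± 0.486 RPKM in NC and 29.0 ± 1.30 RPKM in HE, with every HE sample above every NC sample. Sema6d was at 8.73, 7.87 and 9.19 RPKM in NC and at 10.4, 11.9 and 14.3 RPKM in HE, a log2 fold change of 0.49 (SE 0.15, adjusted p = 0.195; 0.37 without HE3). Sema6a was at 8.79 to 9.83 RPKM in NC and 10.2 to 11.3 RPKM in HE, a log2 fold change of 0.22 with a 95% interval of -0.05 to 0.48. In contrast, Sema6c was lower in every HE sample, with a log2 fold change of -0.61 that was -0.28 without HE3, and Sema6b overlapped. Class 6 made up 24.4% to 28.1% of the semaphorin sum in NC and 35.2% to 43.3% in HE. This share could not overlap either, since the class 6 sum was higher and the semaphorin sum lower in every HE sample. Class 3 made up 11.53% to 14.2% in NC and 7.83% to 10.8% in HE. In classes 5 and 7 the groups overlapped. Sema5b was at 20.5, 10.1 and 16.3 RPKM in NC and at 10.0, 11.3 and 6.57 RPKM in HE, and the GPI-anchored Sema7a at 3.14 to 4.71 and 2.21 to 3.63 RPKM, with log2 fold changes of -0.72 and -0.61 that had adjusted p of 0.241 and 0.238. Sema5a was at 1.53 to 3.15 RPKM over the 6 samples.

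**Figure D4:**
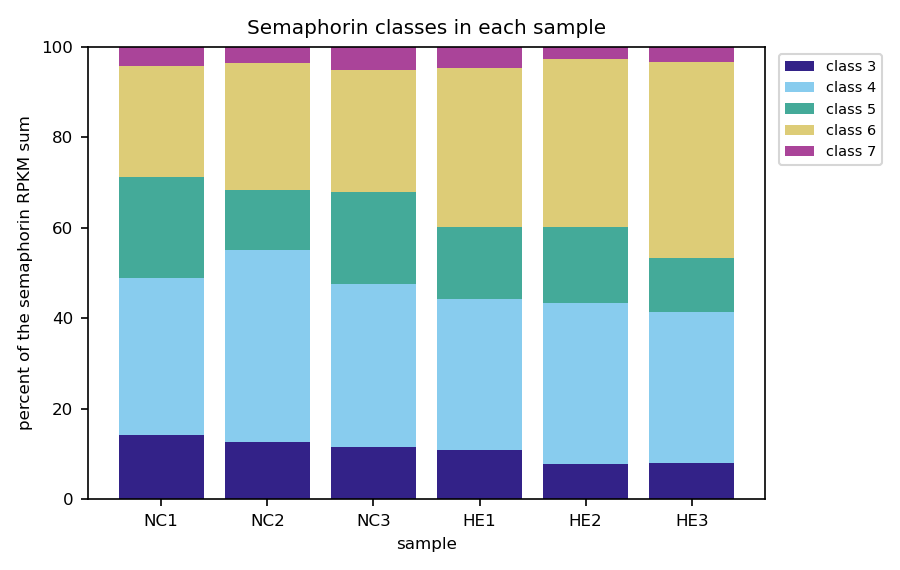
Share of each semaphorin class in the summed RPKM of the 20 semaphorins (percent, stacked bars from 0 to 100) in each of the 6 samples. The class 6 share is above 35% in each HE sample and below 29% in each NC sample, and the class 3 share is below 11% in each HE sample.

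Promoter windows are shown for 3 genes of this system, the lower receptor and ligand Plxnd1 and Sema3e and the higher co-receptor Nrp2, and for the netrin receptor Unc5b described further on. Each runs 5′ to 3′ on the strand of the gene from 250 bases before to 50 bases after a RefSeq transcript start, in GRCm38.p6. Capitals mark matches to GGGCGG, the GC box bound by Sp1 factors, and to AGGTCA, a site read by many nuclear receptors, on either strand, so that the reverse complements CCGCCC and TGACCT are in capitals as well.
Plxnd1, chr6:115994956-115995255, minus strand: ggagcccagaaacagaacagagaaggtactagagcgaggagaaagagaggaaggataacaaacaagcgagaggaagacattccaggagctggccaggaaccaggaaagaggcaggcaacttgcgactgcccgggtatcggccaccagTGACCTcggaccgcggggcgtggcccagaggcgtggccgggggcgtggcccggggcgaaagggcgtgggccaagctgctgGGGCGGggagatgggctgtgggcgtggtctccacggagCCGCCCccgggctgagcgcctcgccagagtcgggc
Sema3e, chr5:14025026-14025325, plus strand: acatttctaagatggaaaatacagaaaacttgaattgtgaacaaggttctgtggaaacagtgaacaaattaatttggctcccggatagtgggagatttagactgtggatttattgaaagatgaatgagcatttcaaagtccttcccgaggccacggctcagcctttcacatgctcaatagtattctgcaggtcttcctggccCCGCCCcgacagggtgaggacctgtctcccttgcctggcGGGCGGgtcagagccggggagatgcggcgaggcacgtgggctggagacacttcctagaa
Nrp2, chr1:62703067-62703366, plus strand: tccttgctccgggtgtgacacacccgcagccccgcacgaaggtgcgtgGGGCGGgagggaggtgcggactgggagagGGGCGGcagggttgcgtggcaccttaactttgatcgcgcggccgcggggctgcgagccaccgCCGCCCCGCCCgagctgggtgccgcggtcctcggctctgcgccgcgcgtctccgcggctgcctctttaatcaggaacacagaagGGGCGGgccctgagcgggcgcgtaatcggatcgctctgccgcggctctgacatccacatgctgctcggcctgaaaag
Unc5b, chr10:60831532-60831831, minus strand: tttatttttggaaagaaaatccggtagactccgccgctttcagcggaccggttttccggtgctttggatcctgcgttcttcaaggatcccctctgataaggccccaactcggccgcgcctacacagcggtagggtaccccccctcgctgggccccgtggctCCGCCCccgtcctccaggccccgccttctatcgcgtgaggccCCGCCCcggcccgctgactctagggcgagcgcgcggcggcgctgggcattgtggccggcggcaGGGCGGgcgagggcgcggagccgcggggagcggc
The window of Plxnd1 held 2 GC boxes and 1 AGGTCA, that of Nrp2 held 5 GC boxes, that of Unc5b 3 and that of Sema3e 2, with G and C making up 67.0%, 70.7%, 69.7% and 50.7% of the bases. RefSeq windows were found for 58 of the 68 members, 74 windows in all. On either strand and with overlapping matches counted separately, a GC box occurred in 71.6% of these windows and in 35.7% of the 32851 windows of all genes. AGGTCA occurred in 13.5% and 16.3%, the TATA box TATAAA in 2.7% and 13.6%. The core of the palindromic estrogen response element, GGTCANNNTGACC, occurred in 0 of the 74 and in 23 (0.07%) of all windows. The median GC content was 64.3% in the members' windows and 52.7% in all windows. The windows of all genes covered 27025 genes, tested here or not, and were not matched to the members in expression. A match describes letters only, and its absence says only that these letters are not in the window.

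Ephrins and Eph receptors gave a mixed picture, with 2 members higher and 6 lower at an unadjusted p below 0.05 among the 20 tested. Over all tested genes the shares were 8.68% higher and 11.8% lower. Among the ephrin-A ligands, which are anchored to the membrane by a lipid, no gene reached a p below 0.05. Efna1 was at 16.2, 25.7 and 14.1 RPKM in NC and at 14.2, 12.3 and 1.43 RPKM in HE. The low value of HE3 set its log2 fold change of -1.49 (SE 0.81, 95% interval -3.39 to 0.41, adjusted p = 0.308), which was -0.45 without HE3. The share of Efna1 in the ephrin-A sum was 50.05% to 72.90% in the other 5 samples and 13.5% in HE3, and without Efna1 the log2 ratio of the ephrin-A sum was 0.03. Efna2 was higher in every HE sample, at 1.52 to 2.05 RPKM in NC and 2.16 to 2.20 RPKM in HE, and Efna4 lower in every HE sample, at 4.73 to 5.68 and 4.19 to 4.66 RPKM, both with 95% intervals that include 0. Efna3 and Efna5 overlapped.

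The transmembrane ephrin-B ligands can also signal back into the cell that bears them. Efnb3 was at 6.09, 5.61 and 6.05 RPKM in NC and at 4.04, 5.21 and 2.60 RPKM in HE, a log2 fold change of -0.63 (SE 0.24, adjusted p = 0.226; -0.36 without HE3). Efnb2 was at 5.90, 3.38 and 5.36 RPKM in NC and at 3.52, 3.32 and 2.08 RPKM in HE, a log2 fold change of -0.69 with overlapping groups (-0.46 without HE3). Efnb1, the most abundant, was at 8.61 to 11.6 RPKM in NC and 9.16 to 11.1 RPKM in HE, and its log2 fold change of 0.05 had a 95% interval of -0.31 to 0.42 and turned below 0 without NC3 or without HE2.

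Within the EphA receptors, members differed in direction. Epha1 was at 1.82, 1.30 and 1.80 RPKM in NC and at 1.05, 0.721 and 0.285 RPKM in HE, a log2 fold change of -1.27 (SE 0.40, adjusted p = 0.195) that was -0.83 without HE3. Its HE3 value rests on 18 reads. Epha7 was at 0.550, 0.629 and 0.865 RPKM in NC and at 1.23, 1.61 and 0.887 RPKM in HE, a log2 fold change of 0.77 (SE 0.27, adjusted p = 0.209). HE3 was just above the highest NC sample, and without it the difference was 0.97. Epha5 was at 1.73, 1.18 and 1.22 RPKM in NC and at 0.974, 0.933 and 0.635 RPKM in HE, a log2 fold change of -0.64 (SE 0.24, adjusted p = 0.220; -0.47 without HE3).

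Other EphA receptors overlapped between the groups. Epha4, which binds ephrins of both classes, was at 4.65 to 9.45 RPKM in NC and 3.61 to 5.24 RPKM in HE, a log2 fold change of -0.74 (adjusted p = 0.221), and Epha3 at 0.970 to 1.28 and 1.28 to 1.75 RPKM, one of 0.50 (adjusted p = 0.237). Epha2, the most abundant EphA receptor, was at 5.89 to 7.91 RPKM in NC and 7.37 to 8.44 RPKM in HE, a log2 fold change of 0.18 with a 95% interval of -0.17 to 0.52. Its share of the EphA sum was 32.6% to 38.9% in NC and 43.7% to 53.7% in HE, while Epha10 stayed below 0.2 RPKM in all samples.

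Of the 5 EphB receptors, which bind ephrin-B ligands, Ephb2 was the most abundant, at 33.0, 33.9 and 28.0 RPKM in NC and at 23.3, 24.2 and 19.9 RPKM in HE. The groups did not overlap, and the log2 fold change was -0.49 (SE 0.13, adjusted p = 0.195), or -0.41 without HE3. Ephb6, which lacks kinase activity, was also lower in every HE sample, at 10.79 to 11.51 RPKM in NC and 9.68 to 10.2 RPKM in HE, but its log2 fold change of -0.16 had a 95% interval of -0.40 to 0.08. Ephb4, Ephb3 and Ephb1 overlapped, with log2 fold changes of -0.22, -0.10 and -0.03, and the last turned above 0 after median-of-ratios scaling.

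**Figure D5:**
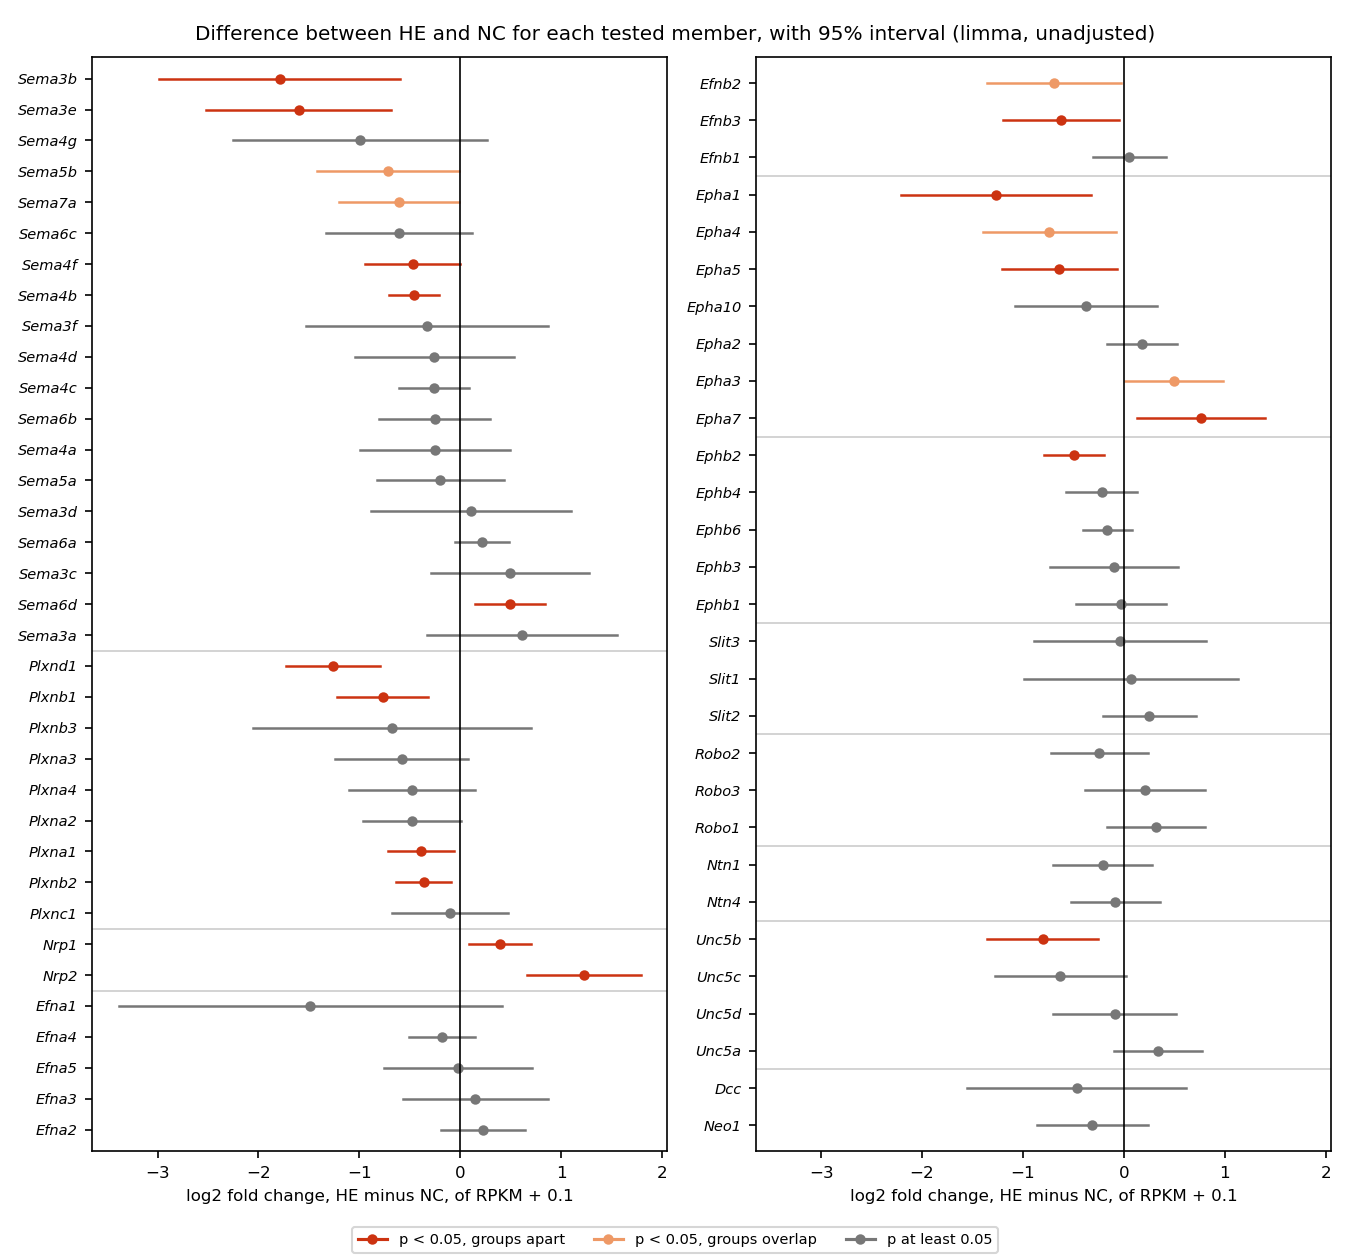
Log2 fold change (HE minus NC, log2(RPKM + 0.1) scale) of each of the 64 tested members from limma, with bars for the unadjusted 95% interval and grey lines between families, coloured by whether the unadjusted p is below 0.05 and whether HE and NC values overlap. All 9 plexins lie left of 0 and both neuropilins right of it, and the widest intervals belong to members with a low HE3 value such as Efna1, Plxnb3 and Sema4g.

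Slits and Robos showed no member at an unadjusted p below 0.05. Slit1, a secreted repellent, was at 2.58, 1.58 and 2.10 RPKM in NC and at 3.18, 3.18 and 0.966 RPKM in HE. HE1 and HE2 were thus the highest samples and HE3 the lowest, and the log2 fold change of 0.07 (95% interval -0.99 to 1.13, adjusted p = 0.933) was 0.61 without HE3 with an adjusted p of 0.207. Slit2 was slightly higher in every HE sample, at 0.376 to 0.469 RPKM in NC and 0.489 to 0.580 RPKM in HE, with a 95% interval of the log2 fold change of -0.21 to 0.72. Slit3 was at 0.133 to 0.360 RPKM. Robo1, the most abundant Slit receptor, was at 8.70, 13.3 and 8.88 RPKM in NC and at 11.7, 15.4 and 11.1 RPKM in HE, with a log2 fold change of 0.32 (95% interval -0.17 to 0.80, adjusted p = 0.379). The groups overlapped through NC2. Robo2 and Robo3 overlapped too, at 2.02 to 3.27 and 0.244 to 0.496 RPKM.

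In the netrin system the ligand was abundant and the receptors differed. Ntn1 was at 90.0, 50.4 and 76.9 RPKM in NC and at 58.1, 60.2 and 64.3 RPKM in HE, so that NC2 lay below all HE samples, and the log2 fold change of -0.21 had a 95% interval of -0.70 to 0.28 and an adjusted p of 0.554. Ntn4, a netrin related to laminins, was at 6.66 to 10.8 RPKM over the 6 samples. Unc5b (ENSMUSG00000020099, GRCm38.p6 chr10:60762594-60831581), a receptor through which netrin repels, was at 22.6, 21.8 and 22.0 RPKM in NC and at 14.9, 15.9 and 8.48 RPKM in HE. The NC samples were nearly equal, and all HE samples lay below them. Its log2 fold change was -0.80 (SE 0.23, 95% interval -1.35 to -0.26, adjusted p = 0.195), or -0.52 without HE3 with an adjusted p of 0.118. Unc5c was lower in every HE sample as well, at 0.748 to 1.35 RPKM in NC and 0.442 to 0.703 RPKM in HE, with a 95% interval of -1.28 to 0.02. Unc5a was higher in every HE sample, at 0.953 to 1.11 and 1.13 to 1.52 RPKM, for which limma gave a log2 fold change of 0.34 and a 95% interval of -0.10 to 0.78, and Unc5d was at 0.187 to 0.382 RPKM over the 6 samples.

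The attractive netrin receptor Dcc was low, at 1.26 to 1.39 RPKM in NC and at 1.61, 1.31 and 0.370 RPKM in HE, and its log2 fold change of -0.47 became 0.11 without HE3. Its relative Neo1, which also binds the guidance molecule RGMa, was at 21.2, 22.6 and 18.3 RPKM in NC and at 20.1, 20.1 and 11.3 RPKM in HE. The difference of -0.31 (95% interval -0.86 to 0.24, adjusted p = 0.436) was -0.04 without HE3. Unc5b was at 96.4% to 120% of the Neo1 level in NC and at 74.1% to 79.4% in HE, and HE3, at 75.1%, fell within the range of the other HE samples on this ratio.

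Members with a low HE3 value included Efna1, Sema4g, Plxnb3, Plxna3 and Dcc. In the same sample the oligodendrocyte lineage markers Sox10 and Mbp were at 1.65 and 1.79 RPKM, whereas the other 5 samples had 13.0 to 16.5 and 11.49 to 22.17 RPKM, and Olig1 was at 312 RPKM in HE3 and 133.5 to 187.7 RPKM in the others. The 8 markers of this lineage summed to 290 to 320 RPKM in NC and 313 to 514 RPKM in HE, with 1 higher and 1 lower in every HE sample. Among the 7 astrocyte markers, Gfap, Aqp4 and Slc1a2 were lowest in HE3, S100b was highest there, and Aldh1l1, Slc1a3 and Aldoc lay within the range of the other samples. The part of cell types in the guidance gene levels of HE3 was not tested.

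Beside the members, a list of 57 other genes of guidance pathways was examined, which holds signalling proteins as well as other ligands, receptors and adhesion molecules, all of which were tested. At an unadjusted p below 0.05, 9 (15.8%) were higher and 10 (17.5%) lower in HE, beside 8.68% and 11.8% of all tested genes, and the median log2 fold change over the list was -0.05. None reached an adjusted p below 0.05. The higher genes included Fyn, a Src-family kinase in semaphorin and netrin signalling, at 42.2 to 52.2 RPKM in NC and 63.1 to 73.1 RPKM in HE with a log2 fold change of 0.51. Mical2, of a family of flavoprotein monooxygenases that act on actin, was at 3.01 to 3.32 RPKM in NC and 4.47 to 5.58 RPKM in HE, with a log2 fold change of 0.69. Flrt2 and Flrt3, membrane ligands of Unc5 receptors, had log2 fold changes of 0.60 and 0.71, while the related Flrt1 had one of -1.20. The other higher genes were Vav3, Chn2, Chn1, Cfl1 and Cdc42, known for roles in small GTPase signalling or actin turnover.

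The lower genes included Met, the hepatocyte growth factor receptor, which can associate with plexin-B receptors. Met was at 6.91, 7.74 and 4.87 RPKM in NC and at 3.39, 2.37 and 0.502 RPKM in HE, a log2 fold change of -1.91 (SE 0.61, adjusted p = 0.196). Rras, a small GTPase on which plexins act, was at 29.6 to 49.5 RPKM in NC and 18.2 to 26.5 RPKM in HE, with a log2 fold change of -0.84. Arhgef12 and Arhgef11, the exchange factors that link plexin-B receptors to RhoA, had log2 fold changes of -0.59 and -0.46, beside Plxnb1 and Plxnb2 which were lower as well. The remaining lower genes were Cntn2, Mical3, Abl1, Vav2 and Pak1, and in the last the groups overlapped. HE3 was the lowest sample for every lower gene of the list, Met and Flrt1 included, except Cntn2. Differences without HE3 are not given for this list, so how far these sizes rest on HE3 is not shown. Rhoa and Rac1 themselves had log2 fold changes of -0.01 and 0.19, and their groups overlapped.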

How the data were processed

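RNA-Seq of 3 HE and 3 NC samples was used. The authors filtered low-quality and adaptor reads and aligned the rest with TopHat2 to mm10 (submitters' processing notes, which also name CASAVA 1.7). The libraries were strand-specific (dUTP), while the counting tool, annotation and strand setting in counting are not given in the sources used here, so overlapping or antisense genes and paralogs could share reads. The deposited table holds raw read counts and RPKM, in which the authors divided each count by gene length and by the total of the sample (checked, deviation at most 4.99e-07). Large counts are written with commas that the unit check did not accept, so RPKM was tested, and the counts with commas removed served for the filter and for voom.

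RPKM was tested as log2(RPKM + 0.1) in limma 3.58.1 (R 4.3.3), its prior variance following mean expression. This is a scale that understates the change of low genes. Group was the only term, tests were two-sided, with Benjamini-Hochberg adjustment over 13952 genes. Genes entered the test with 10 reads at median depth in 3 or more samples and 15 reads or more in total. Calls needed an adjusted p below 0.05 and a log2 fold change of 1 either way. Named in full were members at an unadjusted p below 0.05 without overlap, at most 20, and the most abundant member of each family. Other members and pathway genes were named after their values were seen. The members and lists were chosen with earlier results of these data known. The fit was tested on simulated counts with the same dispersion for every gene and no outlying sample. That test does not cover data with a sample such as HE3. Symbols were matched for 21781 of 22048 identifiers, and coordinates and promoter windows are from RefSeq (GRCm38.p6). At this depth 1 read on 1 kilobase is 0.0523 to 0.0622 RPKM, a limit that covers counting error only. The alternatives were a pseudocount of 1, scaling by median-of-ratios factors, a minimum of 1 read, 10 reads in every sample, voom on the counts, a replicate block, each sample left out, and sample weights, which were added after seeing the data.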

Additional observations from a re-analysis of the deposited data

How the results depend on the processing

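With 3 samples a group, counts depended on single samples. Sample weights, added after seeing the data, gave HE3 a weight of 0.158 and the others 0.852 to 2.87. They called 268 genes (1.92% of those tested), 6 of them members, namely Nrp2, Epha7, Sema3e, Epha1, Plxnd1 and Sema3b. At an unadjusted p below 0.05, 10 members (15.6%) were then higher and 18 (28.1%) lower, beside 13.5% and 16.0% of all tested genes. Leaving out 1 sample in turn, 0 to 103 genes were called, the 103 (0.738%) without NC3, and 0 to 1 members, Nrp2 without NC3. Members at an unadjusted p below 0.05 then numbered 2 to 7 higher and 8 to 16 lower. The shares over all tested genes moved as well, from 4.39% to 9.35% higher and from 5.23% to 13.7% lower. A pseudocount of 1, median-of-ratios scaling, both other filters and voom each called 0 genes and left 4 to 6 members higher and 14 to 18 lower. Over all genes these settings had 6.96% to 9.38% higher and 9.05% to 12.4% lower. With 1 sample left out, the log2 fold change of Slit1 ran from -0.20 (without HE1 or HE2) to 0.61 (without HE3), with -0.11 without NC2, and that of Efnb1 from -0.029 (without NC3) to 0.187 (without NC1), with -0.018 without HE2. In all other cases the 24 members named by the rule kept their direction.

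In 8 of 12 families the sum moved by more than the spread between replicates without the most abundant member. Without it, the log2 ratio was -0.71 for plexins, 1.23 for neuropilins, 0.032 for ephrin-A ligands, -0.64 for ephrin-B ligands, -0.49 for EphA receptors, -0.16 for EphB receptors, -0.17 for Robos and -0.080 for Unc5 receptors. As a mean of log2 values it was 0.81 for neuropilins and -0.30 for Unc5 receptors. The cause was not tested.

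Same-numbered samples of both groups had deviations that correlated at 0.16, 0.09 and 0.06, not all above 0.1, so the numbers were not taken as pairs, although each sample correlated best with its own number. With the replicate number as a block, 4 members (6.25%) were higher and 19 (29.7%) lower at an unadjusted p below 0.05, beside 8.75% and 14.07% of all tested genes, and 0 genes were called.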
